A study of Mus musculus with 7 samples.

Results

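The 5 pairs of ribosomal protein genes described here arose by duplication and were followed in B-cell precursor (BCP) cells as preleukemia gave way to leukemia: Rps4x and Rps4l, Rpl22 and Rpl22l1, Rps27 and Rps27l, Rpl36a and Rpl36al, and Rpl7 and Rpl7l1. They are 10 of the 24341 genes in the deposited table. The pairs were chosen by the difference between leukemic and preleukemic cells in these same samples, where Rps4l fell while other ribosomal protein genes rose. The differences of the members between the groups are therefore given as values with no p, and where counts of called genes appear they are descriptions.

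RNA was sequenced from BCP cells of the spleen of Eμ-Ret mice. Per the labels, the cells of both preleukemic and leukemic mice had been sorted by flow cytometry. These mice carry a Ret fusion oncogene driven by the enhancer of the immunoglobulin heavy chain locus. All 7 samples were from mice hemizygous for this transgene on a BALB/c background, so the preleukemic cells carried it too, and no cells without the transgene were sequenced. Of the 7 samples, 4 labelled as preleukemia were taken from young mice and 3 labelled as overt disease from older, moribund mice. The study used mice of both sexes, and neither the sex nor the age in weeks of the mouse behind each sample is given here. The abnormal BCP population of this strain is a pro-B cell with intermediate B220, intermediate CD43 and high BP-1. The labels number the samples within a group without saying that each came from a separate mouse, so the spread between them may be technical.

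Ribosomal proteins are assembled with ribosomal RNA into the small and the large subunit of the ribosome, and each position in the subunit is normally filled by the product of a single gene. A few of these genes have a paralog, a second gene whose product is similar enough to take the same position or to act at another step of ribosome assembly. In dividing blood cell precursors ribosomal protein mRNAs are among the most abundant transcripts, and their translation is controlled together through a shared sequence at the start of the mRNA.

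How alike the members of a pair are decides whether sequencing can tell them apart, so the coding sequences were aligned (GENCODE annotation on GRCm38). Identity was 79.8% over the 792 aligned bases of Rps4x and Rps4l. It was 87.9% for Rpl36a and Rpl36al over 321 bases, 76.3% for Rps27 and Rps27l over 253, and 74.2% for Rpl22 and Rpl22l1 over 299. Rpl7 and Rpl7l1 could be aligned only in part, with 66.7% identity over 189 positions. No run of 50 bases was shared within any of the 5 pairs, and the longest identical run was 35 bases, between Rps4x and Rps4l. The stretches of 60 coding bases that differ most in the Rps4x and Rpl36a pairs are shown with the differing bases in capitals, the former at coding bases 61 to 120 of Rps4x and the latter at coding bases 121 to 180 of Rpl36a, counted from 1 at the first base of the start codon.
Rps4x: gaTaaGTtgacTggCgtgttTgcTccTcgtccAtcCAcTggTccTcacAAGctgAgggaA
Rps4l: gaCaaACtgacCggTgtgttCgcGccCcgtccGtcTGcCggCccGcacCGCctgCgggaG
Rpl36a: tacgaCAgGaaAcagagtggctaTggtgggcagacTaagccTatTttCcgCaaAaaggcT
Rpl36al: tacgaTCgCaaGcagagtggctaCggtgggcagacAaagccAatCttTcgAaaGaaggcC

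The Rps4 stretch holds 19 differences in 60 bases, the first of them T63C and the last A120G. The Rpl36a stretch holds 12.

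The Rps27 pair cannot be read without another gene. Rps27rt, a copy of Rps27 with 1 exon at chr9:114982366-114982739, has the same 255 coding bases as Rps27 with 0 differences, and shares all 206 of its runs of 50 bases. The first 60 coding bases of Rps27, Rps27rt and Rps27l are shown to make this plain, with capitals where Rps27 and Rps27l differ (18 bases, from T6C to C57T).
Rps27: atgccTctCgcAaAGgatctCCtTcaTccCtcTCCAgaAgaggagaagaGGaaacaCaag
Rps27l: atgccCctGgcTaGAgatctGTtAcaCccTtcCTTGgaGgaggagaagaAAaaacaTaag
Rps27rt: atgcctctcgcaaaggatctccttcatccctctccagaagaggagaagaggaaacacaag

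Rps4l stands apart from the other members in its gene structure. It lies at chr6:148354656-148355598 on the plus strand, in 1 exon, and is annotated as a transcribed processed pseudogene, that is, a copy of an mRNA put back into the genome. Its reading frame aligned with the start codon of Rps4x has a start codon and runs for 262 codons before a stop, against 263 in Rps4x. The copy lies within Tmtc1 (chr6:148232430-148444389, minus strand), in an intron and on the opposite strand, and overlaps no exon of it. The other 9 members are annotated as protein coding and have 2 to 7 exons in their main transcript (positions given with each gene are those of the whole gene). Rps4x and Rpl36a are on chromosome X, Rps27 and Rpl22l1 on chromosome 3, and Rpl7, Rpl22, Rps27l, Rpl36al and Rpl7l1 on chromosomes 1, 4, 9, 12 and 17.

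Levels are given in FPKM, the fragments of a transcript scaled to its length and to the number of fragments sequenced. This scaling is meant to let genes of different length be set side by side. Its error for short transcripts was not tested. Depth, read from the steps of the lowest values, was 15.4 to 16.3 M fragments in the leukemic and 13.6 to 14.9 M fragments in the preleukemic samples. The sum of FPKM over all genes was 507355 to 539887 in the leukemic samples and 448022 to 471447 in the preleukemic samples. All 18 BCP marker genes were in the table, and none was at its floor of 0.01 FPKM in every sample. Their summed level was lower in leukemic (4507 to 7326) than in preleukemic samples (8901 to 11129). The marker genes Vpreb3, part of the pre-B-cell receptor assembly, and Cd79a, its signaling chain, had mean FPKM of 1134 and 1051 in leukemic cells and 1925 and 1467 in preleukemic cells. Markers of other cell types were higher in leukemic samples. The 23 red cell precursor genes in the table summed to 5843 to 26938 FPKM in leukemic and 383 to 2864 in preleukemic samples, the 13 neutrophil genes to 1463 to 1824 and 154 to 894, the 16 macrophage genes to 177 to 438 and 42.3 to 96.0, and the 8 platelet genes to 15.1 to 55.3 and 2.56 to 4.01. Ranges overlapped for the 12 T and NK cell genes (16.1 to 81.4 and 14.7 to 22.4) and the 8 plasma cell genes (488 to 1004 and 833 to 1068). In bulk samples, fewer cells of a type and less RNA per cell cannot be told apart, and the part of these other cells in the values below was not tested.

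**Figure D1:**
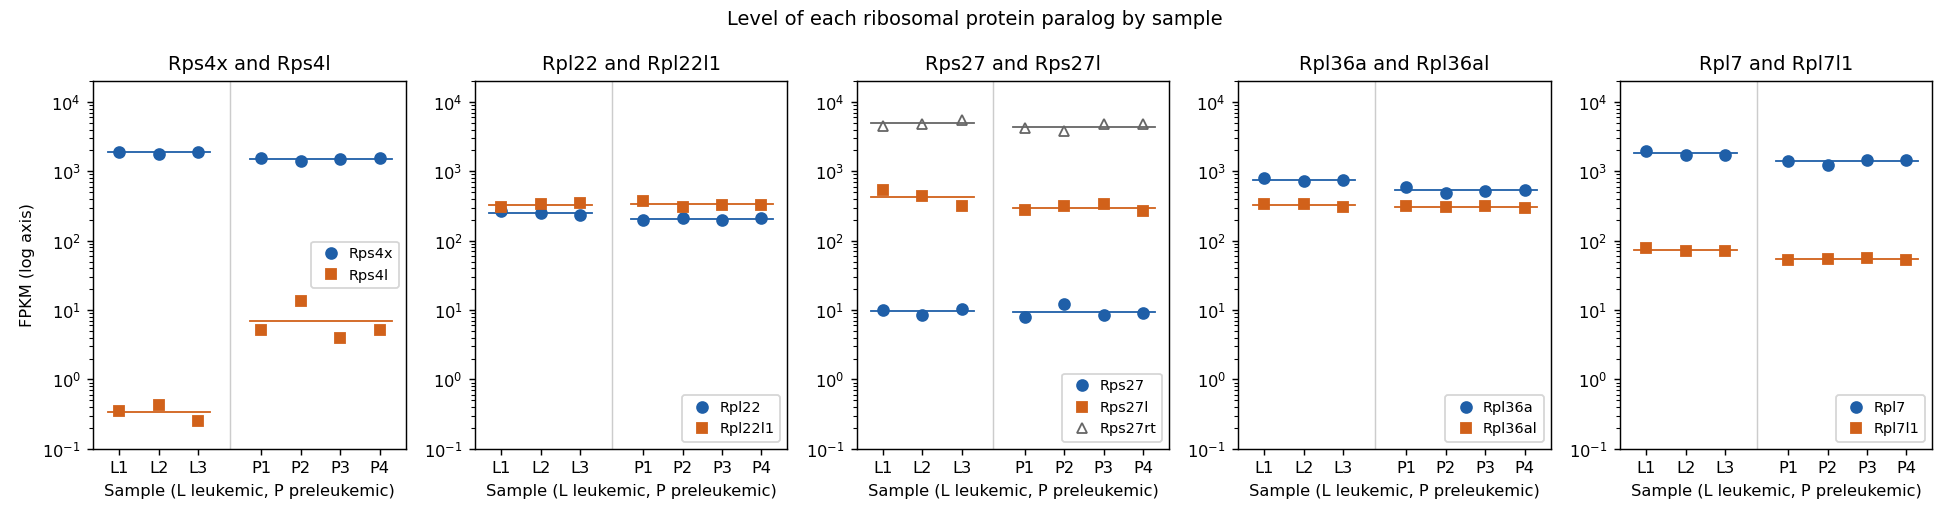
Level of each gene in FPKM (vertical log axis) in the 3 leukemic (L1 to L3) and 4 preleukemic (P1 to P4) samples, 1 panel per pair; points are samples and lines are group means, and Rps27rt is added as open triangles. Rps4l alone lies below 1 FPKM in the leukemic samples, and Rps27 lies between 7.96 and 12.4 while Rps27rt lies between 3820 and 5412.

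Over the 7 samples the members fell into a wide order of levels. Rps4x (mean 1653 FPKM, SD 213, n = 7) and Rpl7 (1570, SD 247) were highest, and their ranges overlapped. Rpl36a followed at 630 (SD 126), and its range overlapped that of Rps27l (353, SD 95.4). Rps27l, Rpl22l1 (332, SD 24.3) and Rpl36al (317, SD 18.0) could not be ordered beyond their spread. Rpl22 at 225 (SD 25.8) and Rpl7l1 at 62.3 (SD 10.8) each lay apart from their neighbors. Rps27 (9.56, SD 1.51) and Rps4l (4.07, SD 4.65) were lowest, with overlapping ranges. Among all 10541 genes tested, which are those with an FPKM sum over samples of at least 10, Rps4x exceeded 99.8% and Rps4l 12.9% by mean level.

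Which copy of a pair was the more abundant is a question that the choice of pairs did not use, and it was tested over all 7 samples with an exact sign-flip permutation test (two-sided) of the mean log2 ratio, with adjustment over the 5 pairs. Rps4x exceeded Rps4l in 7 of 7 samples, with a mean log2 ratio of 8.88 (SD 1.56). Rpl7 exceeded Rpl7l1 in 7 of 7 (4.63, SD 0.10), and Rpl36a exceeded Rpl36al in 7 of 7 (0.96, SD 0.24). The order was the other way in the remaining pairs: Rpl22l1 was above Rpl22 in every sample (log2 ratio of Rpl22 to Rpl22l1, -0.57, SD 0.22), and Rps27l was above the row named Rps27 in every sample (-5.04, SD 0.39). Each of the 5 orders gave an exact permutation p of 0.0156, adjusted p = 0.0156, which is the smallest that 7 samples allow. This p covers only how regularly an order repeats over samples. A bias in the FPKM of a gene that is the same in every sample was not tested. The order of the Rps27 pair turned to a log2 ratio of 3.75 in favor of Rps27 when the Rps27 and Rps27rt rows were added together, an alternative chosen after seeing the data.

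Rps4x (chrX:102184941-102189394) encodes a core protein of the small ribosomal subunit, and its processed copy Rps4l is the member with the largest difference between the groups. Rps4l was at 0.349, 0.433 and 0.249 FPKM in leukemic replicates 1, 2 and 3. It was at 5.12, 13.3, 3.95 and 5.07 FPKM in preleukemic replicates 1, 2, 3 and 4. The groups did not overlap, and preleukemic replicate 2 was far above the other preleukemic samples. Group means were 0.344 ± 0.0925 (SD, n = 3) and 6.87 ± 4.34 (SD, n = 4), which is 19.98-fold higher in preleukemic cells, or 13.7-fold without preleukemic replicate 2. On the log2(FPKM + 1) scale, which understates the change of a gene this low, the difference was -2.42 (SE 0.36). Only 19 of the 10541 genes tested had a lower value.

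The leukemic level of Rps4l rests on few fragments. With a transcript of 943 bases and the depths above, its FPKM values correspond to about 4, 5 and 3 fragments in the leukemic samples and to 55, 142, 40 and 50 in the preleukemic samples. The exact Poisson 95% interval, which covers counting error only, ran from 0.145 to 1.04 FPKM in leukemic replicate 2, the highest of its group, and from 2.82 to 5.38 FPKM in preleukemic replicate 3, the lowest of its group. These intervals do not cover the spread between samples. The summed fragments were 12 leukemic and 287 preleukemic, and 142 of the latter were from preleukemic replicate 2. As Rps4l was chosen on this contrast, no interval is given for the ratio of the groups.

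Rps4x moved the other way by a much smaller amount. It was at 1914, 1770 and 1922 FPKM in the leukemic samples and at 1556, 1396, 1483 and 1531 in the preleukemic samples. Every leukemic sample was above every preleukemic sample, with a log2 difference of 0.33 (SE 0.07), which was 0.16 with FPKM scaled to an equal sum in every sample and 0.03 with quantile normalization. Rps4l therefore amounted to 0.0182%, 0.0245% and 0.0129% of Rps4x in leukemic samples and to 0.329%, 0.955%, 0.266% and 0.331% in preleukemic samples. At these levels the sum of both genes is set by Rps4x.

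Because Rps4l lies inside an intron of Tmtc1 and the use of strand in the counting is not given in the sources used here, the other genes of the region were read as well. The deposited table gives Rps4l a listed region that it shares with Tmtc1, Ergic2, Far2 and 4732416N19Rik. Tmtc1, which encodes a transmembrane protein of the endoplasmic reticulum, was at 0.338, 4.2005 and 2.25 FPKM in leukemic and at 8.17, 4.96, 3.37 and 5.59 FPKM in preleukemic samples. Its groups overlapped, and its highest sample was preleukemic replicate 1. Whether reads from the intron of Tmtc1 form part of the Rps4l value was not tested. Ergic2, a protein of early secretory transport, was at 26.7 to 27.9 FPKM in leukemic and 28.8 to 33.0 FPKM in preleukemic samples. Far2 and 4732416N19Rik stayed under 1 FPKM in every sample and were not tested.

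The genes whose pattern over the 7 samples was nearest to that of Rps4l were Adgrf1, Lrch2, Cdkn2a, Psma8 and Kcna5. Likeness was the root mean square difference of each gene's deviations from its own mean on the log2(FPKM + 1) scale, and it was 0.38, 0.41, 0.43, 0.50 and 0.53 for these genes in turn. All were lower in leukemic samples without overlap. Preleukemic replicate 2 was the highest sample for Adgrf1, Lrch2 and Cdkn2a, and preleukemic replicate 1 for Psma8 and Kcna5. Cdkn2a, the locus of the p16 and Arf tumor suppressors, was at 19.5, 45.0, 17.7 and 19.2 FPKM in preleukemic samples. In leukemic samples it was at 9.78, 4.32 and 3.40 FPKM. Adgrf1, an adhesion G protein-coupled receptor, had mean FPKM of 0.456 in leukemic and 8.42 in preleukemic samples, and Psma8, a testis proteasome subunit, 0.256 and 4.62. The likeness includes the difference between the groups, on which Rps4l was chosen.

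**Figure D2:**
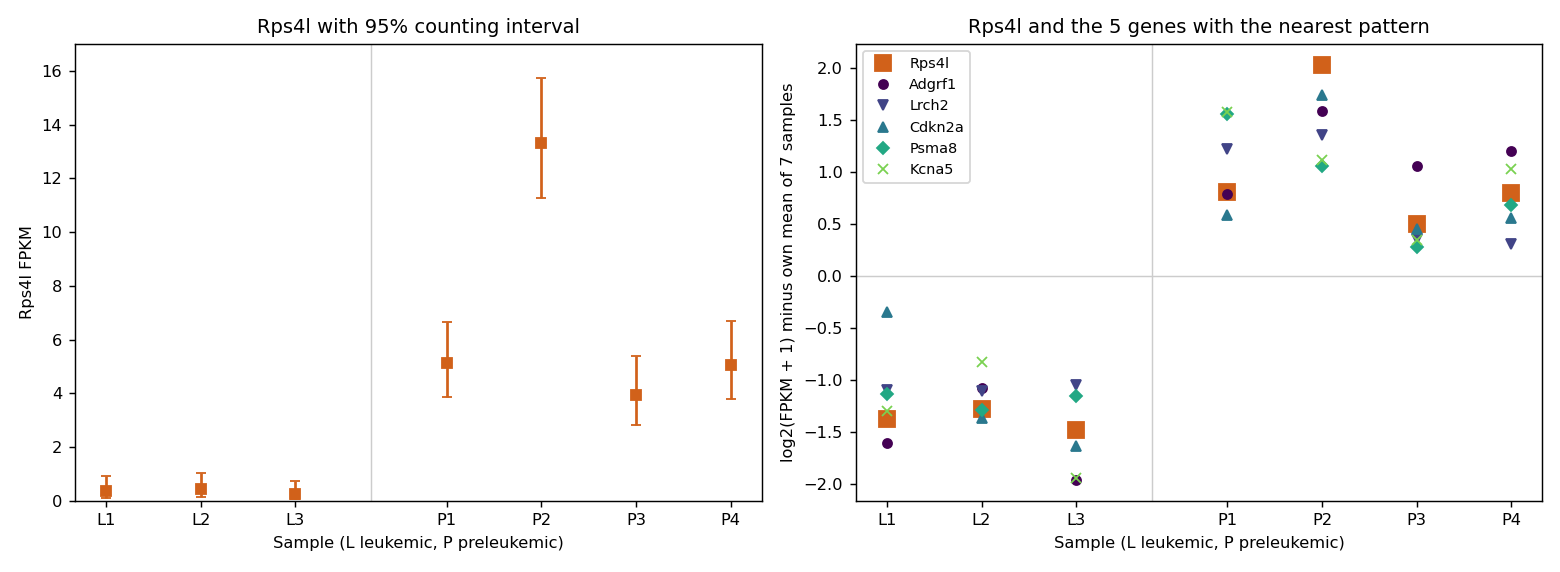
Left, Rps4l in FPKM (linear axis from 0) with exact Poisson 95% counting intervals in leukemic (L) and preleukemic (P) samples; right, log2(FPKM + 1) of Rps4l and its 5 nearest genes less each gene's mean over 7 samples. The leukemic values of 0.249 to 0.433 FPKM lie below every preleukemic value, and preleukemic replicate 2 is highest for Rps4l, Adgrf1, Lrch2 and Cdkn2a.

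Rpl22 (chr4:152325742-152334071) encodes an RNA-binding protein of the large subunit that is lost in some lymphoid leukemias, and its product is known to restrain the transcript of Rpl22l1 (chr3:28805436-28807424). Rpl22 was at 265, 252 and 233 FPKM in the leukemic samples and at 199, 211, 201 and 211 FPKM in the preleukemic samples. It was higher in leukemic cells without overlap, with a log2 difference of 0.28 (SE 0.07), which was 0.11 with FPKM scaled to an equal sum and 0.16 with quantile normalization. Rpl22l1 was at 302, 339 and 353 FPKM in the leukemic samples and at 372, 310, 324 and 323 FPKM in the preleukemic samples. Its groups overlapped and its means were 331 ± 26.0 (SD, n = 3) and 332 ± 27.1 (SD, n = 4), with a log2 difference of -0.003 (SE 0.09). Rpl22l1 made up 57.0% ± 3.48 of the pair in leukemic and 61.7% ± 2.48 in preleukemic samples, with overlap, the lowest share being 53.3% in leukemic replicate 1.

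Rps27 (chr3:90212522-90213651) encodes a zinc finger protein of the small subunit, and Rps27l (chr9:66946086-66949516) is known as a gene that p53 induces. The row named Rps27 held 9.89, 8.62 and 10.5 FPKM in the leukemic samples and 7.96, 12.4, 8.46 and 9.11 FPKM in the preleukemic samples. These levels are far below the 1396 to 1922 FPKM of Rps4x, a gene of the same subunit, and they must be read with the row named Rps27rt, which the table places at the position of Rps27 on chromosome 3 and not on chromosome 9. Rps27rt was at 4545, 4876 and 5412 FPKM in leukemic and at 4210, 3820, 4729 and 4870 FPKM in preleukemic samples. Fragments of the identical coding bases could be given to either row, so the Rps27 row cannot be read as the level of Rps27 mRNA. It held 0.177% to 0.323% of the sum of both rows. The log2 difference was 0.04 (SE 0.15, limma) for the Rps27 row. It was 0.17 (SE 0.11, from the variance within each group) for the sum of both rows. Both the row and the sum overlapped between the groups.

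Rps27l was at 530, 435 and 313 FPKM in the leukemic samples and at 273, 319, 333 and 269 FPKM in the preleukemic samples. Leukemic replicates 1 and 2 were above every preleukemic sample and leukemic replicate 3 was within their range. The log2 difference was 0.49 (SE 0.18), and it was 0.31 without leukemic replicate 1 and 0.69 without leukemic replicate 3. Against the sum of the Rps27 and Rps27rt rows, Rps27l made up 10.4%, 8.18% and 5.47% of the total in leukemic and 6.09%, 7.69%, 6.56% and 5.23% in preleukemic samples. Of a list of 18 genes, made of p53 target genes and Trp53 itself, 16 passed the filter on low values. Of these, 3 were above 0, Trp53 among them, and 13 below. None was called higher and 2 were called lower (limma, adjusted p under 0.05), where 8.47% and 6.26% of all genes tested were. The median log2 difference of the list was -0.36, beside -0.02 over all genes. The list's most abundant genes overlapped between the groups: Trp53 itself had a log2 difference of 0.10 (SE 0.09), Bax, which promotes cell death, -0.26 (SE 0.15), and Btg2, which restrains proliferation, -0.49 (SE 0.33).

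Rpl36a (chrX:134585654-134588062) and Rpl36al (chr12:69182731-69184083) encode nearly the same protein of the large subunit. Rpl36a was at 799, 734 and 744 FPKM in the leukemic samples and at 595, 491, 515 and 529 FPKM in the preleukemic samples. Rpl36al was at 342, 342 and 302 FPKM in the leukemic samples and at 317, 305, 312 and 300 FPKM in the preleukemic samples. Rpl36a was higher in leukemic cells without overlap (log2 difference 0.51, SE 0.08), whereas Rpl36al overlapped (0.09, SE 0.07). The difference of Rpl36a was 0.35 with FPKM scaled to an equal sum and 0.23 with quantile normalization, and that of Rpl36al was -0.08 and -0.06. The log2 ratio of Rpl36a to Rpl36al was 1.22, 1.099 and 1.30 in leukemic and 0.90, 0.69, 0.72 and 0.82 in preleukemic samples. This ratio, like that of Rps4x to Rps4l, did not overlap between the groups, and the difference of the ratio was 0.42 (SE 0.08). As a share of the pair, Rpl36al was 36.7% ± 1.58 in preleukemic and 30.2% ± 1.48 in leukemic samples.

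Rpl7 (chr1:16101295-16104662) encodes a protein of the large subunit, and Rpl7l1 (chr17:46773907-46782672) encodes a relative found on early precursors of that subunit. Rpl7 was at 1964, 1720 and 1743 FPKM in the leukemic samples and at 1404, 1248, 1438 and 1471 FPKM in the preleukemic samples. Rpl7l1 was at 78.6, 71.2 and 70.4 FPKM in the leukemic samples and at 52.6, 54.9, 56.2 and 52.5 FPKM in the preleukemic samples. Both were higher in leukemic cells without overlap, with log2 differences of 0.38 (SE 0.09) and 0.43 (SE 0.07). These were 0.21 and 0.27 with FPKM scaled to an equal sum, and 0.10 and 0.37 with quantile normalization. The log2 ratio of Rpl7 to Rpl7l1 was 4.604 ± 0.03 in leukemic and 4.66 ± 0.13 in preleukemic samples, a difference of -0.05 (SE 0.07) with overlapping groups. Rpl7l1 made up 3.85% to 3.98% of the pair in leukemic and 3.44% to 4.21% in preleukemic samples.

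**Figure D3:**
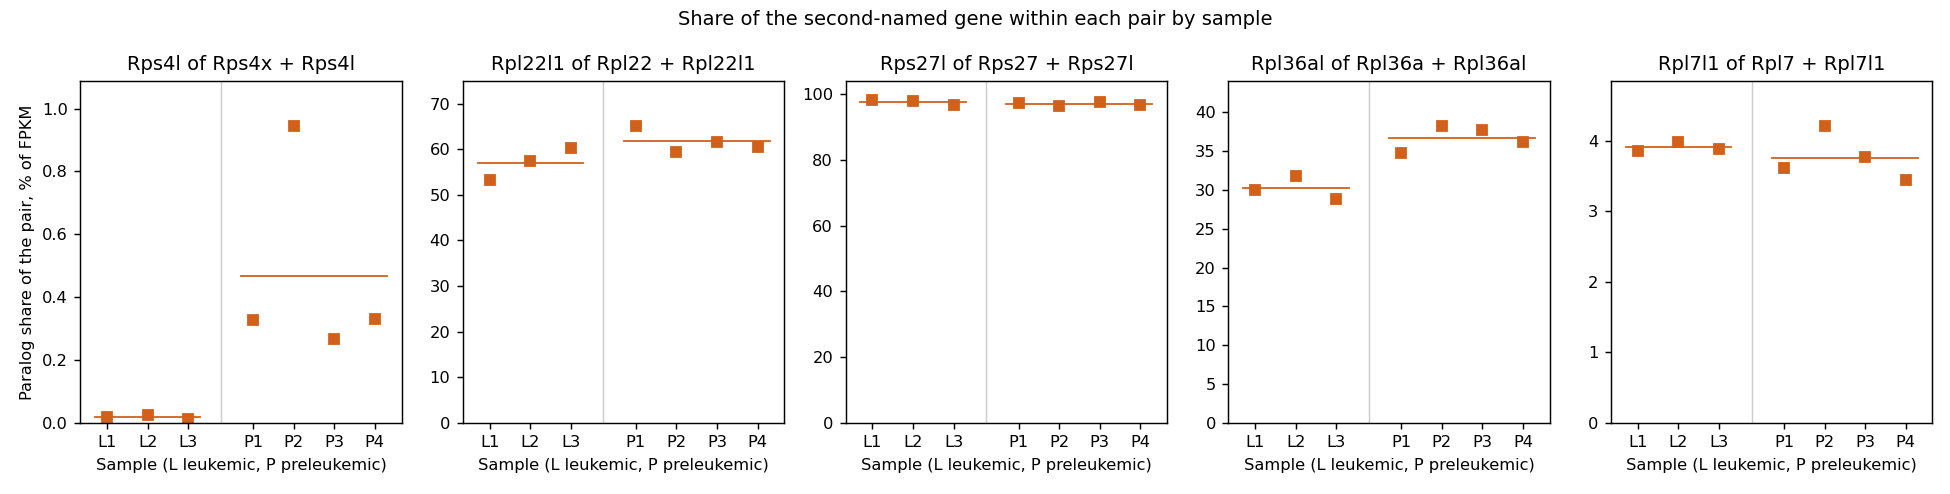
Share of the second gene of each pair in the summed FPKM of the pair, in percent (linear axes from 0, a scale for each panel), by sample; points are samples and lines are group means. Rps4l and Rpl36al have lower shares in all 3 leukemic (L) samples than in any of the 4 preleukemic (P) samples, while the shares of the other genes overlap.

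Set side by side, the pairs differed in how far their 2 genes moved together. The difference of the within-pair log2 ratio, leukemic less preleukemic, was 2.74 (SE 0.38) for Rps4x to Rps4l, 0.42 (SE 0.08) for Rpl36a to Rpl36al, 0.28 (SE 0.14) for Rpl22 to Rpl22l1, -0.05 (SE 0.07) for Rpl7 to Rpl7l1 and -0.44 (SE 0.29) for the Rps27 row to Rps27l, or -0.32 with the Rps27rt row added. That of the Rpl22 pair was 0.17 without leukemic replicate 1. That of the Rps27 row was -0.29 without leukemic replicate 1 and -0.71 without leukemic replicate 3. A scaling common to a whole sample leaves this ratio as it is where both genes are abundant, and under quantile normalization it was 0.29 for Rpl36a to Rpl36al and -0.28 for Rpl7 to Rpl7l1. Across the members, 8 were above 0 and 2 below, and Rpl22l1, Rps27 and Rpl36al were near 0 and below it (-0.17, -0.11 and -0.08) when FPKM were scaled to the same sum in every sample. That scaling moved the median of all genes by -0.16, and relative to the median of all genes the same 3 were at 0.01, 0.06 and 0.10. Under quantile normalization Rpl22l1 and Rpl36al were at -0.14 and -0.06.

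All 10 members passed the filter on low values. Without overlap between the groups, 5 members were higher in leukemic cells (Rps4x, Rpl22, Rpl36a, Rpl7 and Rpl7l1), where 14.9% of all genes tested were, and 1 was lower (Rps4l), where 17.1% were. The same 6 members were past an adjusted p of 0.05 in limma's test over all genes, 5 higher beside 8.47% of genes and 1 lower beside 6.26%. Since this contrast chose the members, nothing is read from these counts. Over all genes the split was 893 higher and 660 lower, which became 686 and 2231 with FPKM scaled to an equal sum and 754 and 907 with quantile normalization.

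**Figure D4:**
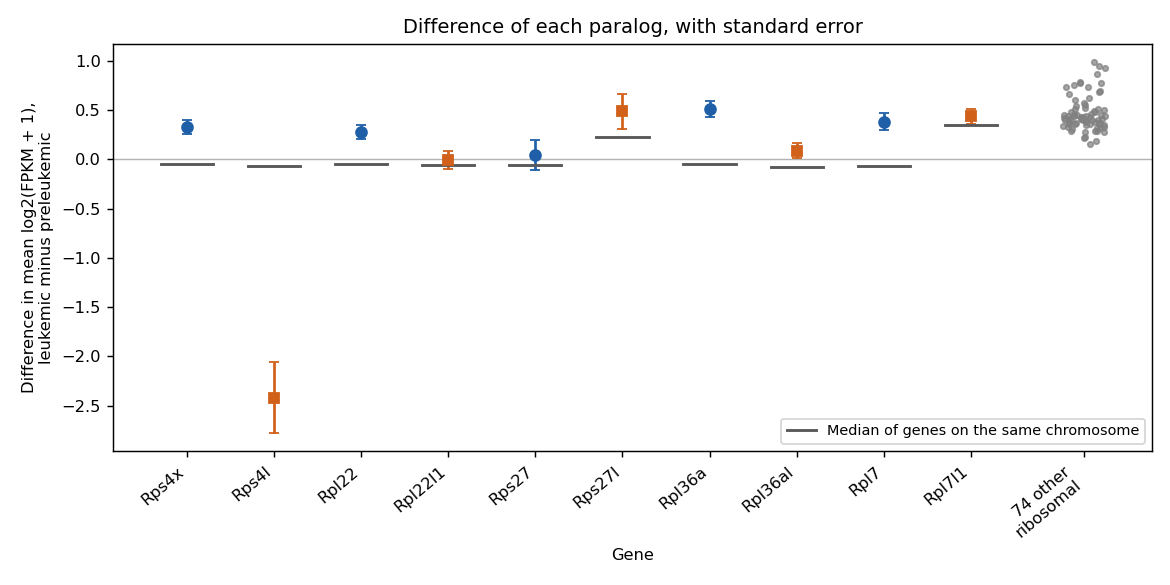
Difference in mean log2(FPKM + 1), leukemic minus preleukemic, for the 10 members (circles, first gene of a pair; squares, second gene), with standard errors as bars and the median of genes on the same chromosome as dark lines; gray points are the 74 other genes of the ribosomal protein list. Rps4l lies at -2.42 and the other members between -0.003 and 0.51 (Rpl22l1, Rps27 and Rpl36al fall below 0 when FPKM are scaled to an equal sum), and the gray points run from 0.15 to 0.98.

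The other ribosomal protein genes give the frame for these values. A list of 79 genes for proteins of the standard ribosome, without the scaffold protein Gnb2l1, held 5 of the members. It was in the table as a whole and passed the filter. Its summed level was 98265, 94929 and 97164 FPKM in the leukemic and 72051, 67026, 71616 and 72271 FPKM in the preleukemic samples. The median log2 difference was 0.41, beside -0.02 over all genes, and 79 of 79 genes were above 0. The rise of other ribosomal protein genes was part of the choice of the pairs, so these values are a description. The count above 0 was 77 with FPKM scaled to an equal sum and 66 with quantile normalization, with medians of 0.25 and 0.14. Of the 74 genes that are not members, the lowest difference was 0.15. Rpl22l1 and Rps4l, which are not in the list, lay below all 79 of its genes, Rps27 was its lowest gene, and 1 of 79 was below Rpl36al. By the same count 55 lay below Rps27l, 44 below Rpl7l1 and 59 below Rpl36a.

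Among the list's named genes, the lowest differences besides Rps27 were in Rpl38 (0.15, SE 0.07) and Rpl39 (0.19, SE 0.09), both of the large subunit. The highest were in Rps28 (0.98, SE 0.12), Rps10 (0.94, SE 0.07) and Rpl36 (0.93, SE 0.08), all on chromosome 17. Among the most abundant were Rplp1 of the ribosomal stalk (mean 3031 FPKM, log2 difference 0.73, SE 0.11) and Rps15 of the small subunit (mean 2705 FPKM, log2 difference 0.40, SE 0.06).

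Other copies of ribosomal protein genes were sparse in the table. Of 25 such genes listed, 9 were present and 5 passed the filter. Of these 5, 1 was called higher and 0 lower, beside 8.47% and 6.26% of all genes tested. All 5 were above 0, though 4 were with FPKM scaled to an equal sum and 3 with quantile normalization. The one called was Rpl34-ps1, which had 1338 ± 63.6 FPKM in leukemic and 1010 ± 74.8 FPKM in preleukemic samples, and which the table places at the position of Rpl34, as it does Rps27rt at that of Rps27. Rps15a-ps6, Rps15a-ps4 and Rps19-ps3 had means of 4.28, 3.20 and 2.39 FPKM and log2 differences of 0.04 (SE 0.16), 0.44 (SE 0.21) and 0.33 (SE 0.17). Rps4l, with a mean of 4.07 FPKM over both groups, was within the range of Rps15a-ps6, Rps15a-ps4 and Rps19-ps3 by this pooled level only. Its leukemic mean of 0.344 FPKM was below the leukemic mean of each of them. Its preleukemic mean of 6.87 FPKM was above the preleukemic mean of each. The Rps4l difference of -2.42 was outside the range of theirs, and Rps4l was chosen on this contrast. Other genes whose mRNAs start with the terminal oligopyrimidine (TOP) sequence of ribosomal protein mRNAs were above 0 in 19 of 19 cases. Their median was 0.29, and 15 of 19 were above 0 with FPKM scaled to an equal sum and 15 with quantile normalization. Of the 19, 8 were called higher and 0 lower, beside 8.47% and 6.26% of all genes tested. Their most abundant members were the elongation factor Eef1a1 (0.51, SE 0.09), Tpt1 (0.22, SE 0.15) and the ribosomal scaffold protein Gnb2l1 (0.49, SE 0.07).

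Chromosomes differed in their medians, and these stand beside the members they carry. The median log2 difference was 0.35 over the 592 genes tested on chromosome 17, which carries Rpl7l1, and 0.22 over the 596 genes on chromosome 9, which carries Rps27l. Less these medians, Rpl7l1 was at 0.09 and Rps27l at 0.26. The chromosomes of the other members had medians between -0.08 and -0.04. Less its chromosome's median, Rps4l was at -2.35, Rpl36a at 0.56, Rpl7 at 0.45, Rps4x at 0.38, Rpl22 at 0.32, Rpl36al at 0.17, Rps27 at 0.10 and Rpl22l1 at 0.06. The part of chromosome number in these values was not tested.

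The marker sums and the members were also read sample by sample. Leukemic replicate 2 had the highest red cell precursor, macrophage and platelet sums (26938, 438 and 55.3 FPKM) and the lowest leukemic neutrophil sum (1463 FPKM). It had the highest leukemic Rps4l, the lowest leukemic Rps4x, Rpl7, Rpl36a and Rps27, and the lowest leukemic ribosomal protein sum, 94929 FPKM. Leukemic replicate 1 had the lowest red cell precursor sum of its group, 5843 FPKM, the highest ribosomal protein sum, 98265 FPKM, and the highest Rpl22, Rps27l and Rpl7. Preleukemic replicate 1 had the highest red cell precursor, macrophage and neutrophil sums of its group (2864, 96.0 and 894 FPKM). It had the highest Rpl22l1 and the lowest Rps27 and Rpl22 of all 7 samples. Its Rps4x (1556 FPKM) and Rpl36a (595 FPKM) were the highest of the preleukemic group. Its ribosomal protein sum of 72051 FPKM was below only the 72271 FPKM of preleukemic replicate 4 in that group. Preleukemic replicate 2, with the highest Rps4l, had a red cell precursor sum of 401 FPKM and the lowest ribosomal protein sum, 67026 FPKM. The part of the other cells in these values was not tested.

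All 22 red cell precursor genes tested were called higher in leukemic cells by limma, with a median log2 difference of 4.33, led by the globins Hbb-b1 (4.86, SE 0.96) and Hba-a1 (4.92, SE 0.99). Of 14 macrophage genes 9 were called higher, of 12 neutrophil genes 5 and of 5 platelet genes 4. Of 6 plasma cell genes 1 was called higher, and of 8 T and NK cell genes 0. In these lists no gene was called lower. Over all genes tested, 8.47% were called higher and 6.26% lower. Of the 18 BCP markers 4 were called lower and 0 higher. Their median log2 difference was -0.66, and 17 of 18 were below 0, also under both scalings. Without overlap between the groups 12 were lower, where 17.1% of all genes tested were.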

How the data were processed

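RNA-seq of 7 BCP samples (3 leukemic, 4 preleukemic; sorted, per the labels) was read from 1 table in which the authors deposited FPKM values per gene, none below 0.01. The submitters' processing notes name STAR 2.5.0b, bedtools 2.17.0, Cufflinks 2.2.1, Bowtie, DESeq2 and build mm10, without a role; strand use in counting is not given in the sources used here. FPKM are not counts, so no count model was run. Group differences of log2(FPKM + 1) came from limma 3.58.1 (R 4.3.3; eBayes with an intensity trend, no covariates, Benjamini-Hochberg), fitted to the 10541 genes whose FPKM summed to 10 or more and called at an adjusted p of 0.05, and the fit was tested on simulated data. Standard errors of the within-pair ratios and of the summed Rps27 and Rps27rt rows came from the variance within each group, not from limma. Other steps used Python 3.11.15 with scipy 1.17.1 and Biopython 1.88.

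Depth came from whole steps in low values of 2092 single-transcript genes, where 76.4% to 83.4% of values were whole fragments (tolerance 0.1); fragments of Rps4l were FPKM times depth times the length less 220 bases.

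The members and lists were chosen with earlier results of these data known. Named genes are the members, the 3 highest and 3 lowest differences and the 3 highest levels of the ribosomal list, the 3 highest levels of the TOP and p53 lists, other copies with a mean of at least 1 FPKM, 2 genes by level per marker list, and the 5 nearest genes to Rps4l; other genes of the Rps4l region were added after their values were seen. Of the genes this rule names, 1 is not reported here. Alternatives were other pseudocounts, filters and scalings, a replicate block, and each sample left out.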

Additional observations from a re-analysis of the deposited data

Results flagged for a closer look

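Among 28 groups of 4 preleukemic values examined (members, pair shares, list sums, Tmtc1 and Rps27rt), 5 held a sample far from the others by Dixon's criterion. Chance flags about 1 in 20 independent groups. These groups are not independent, as pair shares and list sums are made from gene values, so the 5 cannot be set against that rate. Rps4l stood at 13.3 FPKM in preleukemic replicate 2, with a gap of 0.876 of the range of its group, and the share of Rps4l in its pair was 0.946% in the same sample. In that sample the ribosomal protein sum was lowest, at 67026 FPKM, and the sum of the p53 list, which includes Trp53, was highest, at 761 FPKM. Without preleukemic replicate 2 the log2 difference of Rps4l was -2.08. The red cell precursor sum was 2864 FPKM in preleukemic replicate 1, against 383 to 401 in the other preleukemic samples. Groups of 3 were not examined.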

How the results depend on the processing

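The count of genes called, 1553 as reported, was 951 with an FPKM sum of at least 70 and 2917 with FPKM scaled to an equal sum. Leaving out 1 sample gave 106 to 1506 genes, with 935, 457, 273 and 106 without preleukemic replicates 1, 2, 3 and 4; the cause was not tested. With the replicate number as a block, limma called 0 genes (2429 at an unadjusted p under 0.05, against 3586 without the block). Same-numbered samples did not deviate together over all genes (correlations of 0.03, 0.05 and -0.09 for numbers 1, 2 and 3). With so few samples these correlations cannot decide whether same-numbered samples share more than a number. The median of the ribosomal list was 0.25 with FPKM scaled to an equal sum and 0.14 with quantile normalization. The level order of the Rps27 pair reversed to 3.75 when the Rps27rt row was added. In the other 50 settings of the 5 level orders the order held. Where the order is the same in every sample, the p depends only on the number of samples, so its side of the threshold adds nothing. Rps4l stayed negative in 11 of 11 alternatives (-3.82 with a pseudocount of 0.1 to -2.08). It was chosen on the contrast of leukemic and preleukemic samples, and its groups did not overlap. Leaving out a sample or changing the pseudocount could therefore only give a negative sign, so the count adds nothing there. Fragment numbers of 3 to 5 limit the leukemic level of Rps4l.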
